A study of Mus musculus with 4 samples.

Results

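The genes described here are the collagen chains of the mouse that do not belong to the basement membrane. Every gene symbol made of Col, a number, the letter a and a number was taken, and the type IV chains, Col15a1 and Col18a1 were left out, which gave 36 genes of the 27998 measured and of 44 collagen genes of all kinds. Their RNA was counted as unique molecular identifiers (UMIs, 1 per captured RNA molecule) in single cells of fetal thymic lobes at E13-13.5. There were 4 libraries, 1 per group: Tbx1+/+ with carrier (ETOH), Tbx1neo2/neo2 with carrier, Tbx1neo2/neo2 with minoxidil and Tbx1neo2/neo2 with PGE2. The neo2 allele carries a neomycin cassette, placed in a Tbx1 intron, which lowers Tbx1 expression, and homozygous embryos have hypoplastic thymic lobes. Tbx1+/neo2 mice were intercrossed and the pregnant dams were injected on E8, E9 and E10, so the embryos of each group shared the injections of their dam. Lobes were pooled for the hypoplastic tissues, how many embryos stand behind each library was not given in the sources used here, and the cells were released with trypsin. With 1 library per group there is no test between groups. Levels are the summed UMIs of a gene in a group of cells, scaled to counts per 1e6 UMIs of that group (CPM), with exact Poisson 95% intervals, and ratios carry exact conditional 95% intervals. Both cover counting error only, not the spread between embryos.

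Collagens are trimers of chains wound into a triple helix in the endoplasmic reticulum, secreted, and assembled outside the cell. Fibrillar types such as I, III and V make the banded fibrils of connective tissue, whereas types II and XI, decorated with type IX, make the thin fibrils of cartilage. Fibril-associated types (IX, XII, XIV, XVI) sit on the surface of fibrils, type VI forms beaded microfilaments around cells, type VIII forms networks, and types XIII, XXIII and XXV are anchored in the cell membrane. In the fetal thymus the mesenchyme that surrounds and enters the lobes, largely of neural crest origin, is the known source of interstitial collagens.

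Stretches of DNA before a transcription start of the type IX chains Col9a1 and Col9a2 and the type XI chains Col11a1 and Col11a2 are shown. These genes were chosen because they were higher in cartilage-like cells than in fibroblasts. They are the cartilage chains with a stretch in the table used, which had none for Col2a1 and Col9a3, the 2 chains with the larger ratios. Each is 250 bases upstream of a transcription start in RefSeq (build GRCm38.p6, plus strand, 5′ to 3′). Capitals mark the GC box GGGCGG or its reverse complement CCGCCC. Col9a1 lies at chr1:24177360-24177609 (the first of its 2 entries), Col9a2 at chr4:121039316-121039565, Col11a1 at chr3:114030290-114030539 and Col11a2 at chr17:34038888-34039137. In gene positions of build GRCm38, Col9a2 starts at chr4:121039385, inside its stretch and before both marked GC boxes. Col11a2 starts there at chr17:34039437, some way past the end of its stretch.
Col9a1: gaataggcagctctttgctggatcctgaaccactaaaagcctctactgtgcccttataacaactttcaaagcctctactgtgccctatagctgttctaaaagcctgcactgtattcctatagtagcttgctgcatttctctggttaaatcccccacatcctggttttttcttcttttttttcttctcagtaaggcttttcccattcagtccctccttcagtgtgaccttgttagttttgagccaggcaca
Col9a2: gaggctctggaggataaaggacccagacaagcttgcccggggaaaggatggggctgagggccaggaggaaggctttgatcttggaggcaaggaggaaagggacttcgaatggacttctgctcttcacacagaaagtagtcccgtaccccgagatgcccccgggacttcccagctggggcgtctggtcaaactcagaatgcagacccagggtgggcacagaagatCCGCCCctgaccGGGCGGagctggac
Col11a1: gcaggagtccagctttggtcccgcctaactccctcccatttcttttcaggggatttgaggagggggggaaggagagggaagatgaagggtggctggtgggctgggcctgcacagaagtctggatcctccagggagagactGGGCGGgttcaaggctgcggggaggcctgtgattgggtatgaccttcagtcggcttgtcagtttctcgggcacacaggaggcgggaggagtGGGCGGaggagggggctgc
Col11a2: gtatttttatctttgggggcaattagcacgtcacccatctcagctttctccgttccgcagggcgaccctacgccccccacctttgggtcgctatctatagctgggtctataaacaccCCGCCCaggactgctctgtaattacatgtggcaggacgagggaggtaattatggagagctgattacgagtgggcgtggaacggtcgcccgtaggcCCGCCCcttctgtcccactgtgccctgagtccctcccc
Of the 36 genes, 28 had an upstream stretch in the table, 30 stretches in all. Col1a1, Col2a1, Col5a2, Col9a3, Col12a1, Col14a1, Col22a1 and Col26a1 had none. Searched on both strands, the GC box stood in 18 of the 30 stretches (60%) and in 32.7% of the 32851 stretches of all genes. The SOX motif ACAAAG stood in 4 of 30 (13.3%), those of Col3a1, Col10a1, Col20a1 and Col28a1, against 16.5% of all genes, and the SOX motif ACAATG in 1 of 30 (3.33%), that of Col28a1, against 10.7%. The TATA box TATAAA was found in 5 of 30 (16.7%), including Col3a1 and Col11a2, against 12.4%, and CCAAT in 9 of 30 (30%) against 33.8%. None of the 4 stretches shown holds either SOX motif. These are matches of letters within 250 bases, with no measurement of binding.

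The 4 libraries held 3362 to 11908 cell barcodes, and 3201 to 11474 cells with a median of 14108 to 41084 UMIs were kept. Pairs of libraries shared 4 to 35 barcodes. Mesenchymal cells numbered 2575, 6191, 928 and 842 in the wild-type carrier, mutant carrier, minoxidil and PGE2 libraries, the order used for all lists of 4 values below. They were clustered without any collagen or collagen-modifying gene and named from other markers. Pericyte-like cells (Kcnj8, Abcc9) numbered 686, 233, 212 and 207, Dcn-positive fibroblast-like cells (Dcn fibroblasts) 342, 117, 156 and 148, and a cluster led by Stmn2, Nell2, Shisa3 and Barx1, which matched no marker list and is called the Nell2/Barx1 mesenchyme, 793, 106, 262 and 177. Smooth-muscle-like cells (Acta2, Tagln, Eln) numbered 71, 1, 49 and 126, so only the wild-type carrier and PGE2 libraries reached the minimum of 50 cells set for a level. These numbers depended on the clustering. With finer clusters (resolution 1.0 in place of 0.5) the smooth-muscle-like cells were 178, 10, 121 and 206, and with clusters made after integration of the libraries 73, 1164, 39 and 82, the last from 1 cluster with a summed Hox level of 317 CPM.

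The mutant carrier library stood apart from the other 3. It held all 1977 cartilage-like cells (0 in the other libraries, which allows a share of up to 0.117%, 0.323% and 0.356% of mesenchymal cells) and 2434 of the Hox-positive cells, against 4, 1 and 9. With finer clusters 1168 of its cells were cartilage-like and another cluster of 609, led by Hoxa7, Gdf5, Col2a1, Hoxc8 and Sox9, went to the Hox-positive cells. With integrated clusters it held 2045 cartilage-like cells and the other libraries 1, 2 and 4, the last being 0.475% of the mesenchymal cells of the PGE2 library. A cluster found in 1 library may be that library and not a cell type. The cartilage-like clusters were named from genes other than collagens, with Sox9 at 909 CPM, Acan at 119 CPM and Matn4 at 512 CPM, against 41.5, 0 and 6.98 CPM in Dcn fibroblasts of the wild-type carrier library. The 3 Hox-positive clusters were set off by a summed Hox level of 404, 557 and 489 CPM. The largest of them is led by Gap43 and Twist2, has no Hox gene among its 10 leading genes and rests on that level alone. Its marker score was higher for the Dcn fibroblast list (0.459) than for the Hox list (0.327). The smallest, cluster 11, scored 0.930 for the erythroid list and 0.0261 for the Hox list. Values that include cartilage-like or Hox-positive cells are therefore given apart from the subtypes that all 4 libraries share. Cycling cells are not described as a subtype, since 1 of their clusters is led by hemoglobin genes.

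Of the 36 genes, 25 reached 20 CPM in at least 1 subtype of 1 library. They are 10 of 11 fibrillar chains (all but Col24a1), 6 of 9 fibril-associated chains, 4 of 6 type VI chains, 1 of 4 network or anchoring chains (Col8a2), 3 of 4 membrane-spanning chains (Col13a1, Col23a1, Col25a1) and Col26a1. The other 11, Col6a4, Col6a5, Col7a1, Col8a1, Col10a1, Col17a1, Col19a1, Col20a1, Col22a1, Col24a1 and Col28a1, peaked between 0.620 and 11.8 CPM in these subtypes, and 9 of them stayed under 3 CPM there. In single clusters and other cell classes some went higher, with Col8a1 at 40.8 CPM (79 UMIs) in Hox-positive cluster 11, and Col19a1 at 8.85 CPM and Col20a1 at 4.57 CPM in myogenic cells of the mutant carrier library. Col10a1, the collagen of hypertrophic cartilage, was one of the low ones. Over the levels at or above 20 CPM the 95% interval reached a median of 7.80% above the value and at most 41.2%.

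**Figure D1:**
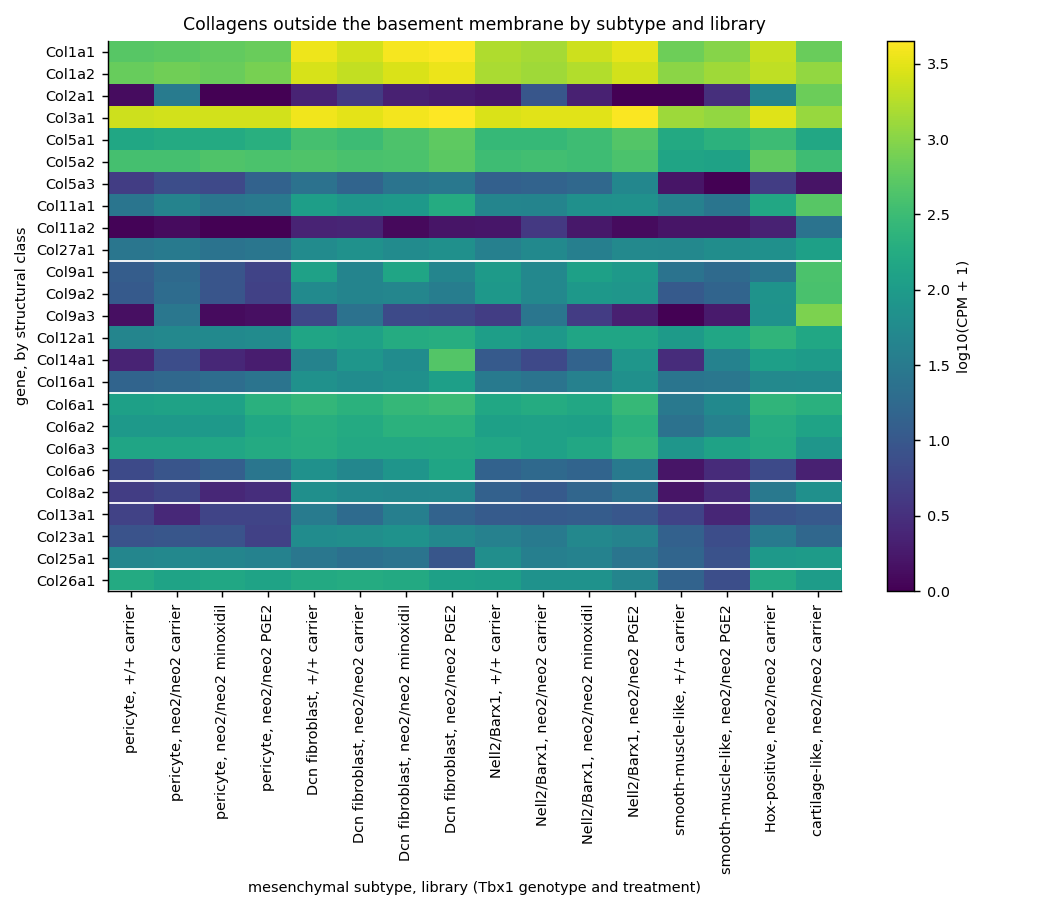
Heat map of the level of the 25 collagen chains that reached 20 CPM, as log10 of CPM plus 1, with genes in rows ordered by structural class and the subtypes of each library in columns. The type I and III chains were high in every column, and Col2a1, Col9a1, Col9a2, Col9a3 and Col11a1 were high together in the cartilage-like cells of the mutant carrier library.

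Collagens made up the largest share of RNA in Dcn fibroblasts among the subtypes that all libraries share. The 36 genes together took 1.26%, 0.998%, 1.33% and 1.58% of the UMIs of Dcn fibroblasts. The share was 0.771%, 0.752%, 0.895% and 1.26% in the Nell2/Barx1 mesenchyme, 0.476%, 0.512%, 0.516% and 0.553% in pericyte-like cells, and 0.378% and 0.444% in smooth-muscle-like cells of the wild-type carrier and PGE2 libraries. The lowest share in Dcn fibroblasts lay above the highest in pericyte-like cells. Types I and III supplied 72.8% to 74.0% of the collagen UMIs of pericyte-like cells and 78.1% to 80.4% of those of Dcn fibroblasts. In the wild-type carrier library 22 chains reached 20 CPM, and 19 of them were highest in Dcn fibroblasts. The share of all genes highest there was not counted, so this number is not read as particular to collagens. The chains not highest in Dcn fibroblasts were Col26a1, highest in pericyte-like cells, and Col9a2 and Col25a1, highest in the Nell2/Barx1 mesenchyme.

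The major fibril chains separated the subtypes in each library. Col1a1, the alpha 1 chain of type I collagen, stood at 3574, 2553, 4060 and 4464 CPM in Dcn fibroblasts and at 512, 537, 596 and 668 CPM in pericyte-like cells. All 4 values in Dcn fibroblasts lay above all 4 in pericyte-like cells. Col1a2, its partner chain, stood at 2726, 2081, 2756 and 3538 CPM in Dcn fibroblasts and at 628, 721, 656 and 789 CPM in pericyte-like cells. The number of Col1a1 UMIs per Col1a2 UMI was 1.31, 1.23, 1.47 and 1.26 in Dcn fibroblasts, but 0.814, 0.746, 0.909 and 0.846 in pericyte-like cells, 0.680 and 0.724 in smooth-muscle-like cells and 0.571 in cartilage-like cells. It was 1.09, 1.05, 1.37 and 1.27 in the Nell2/Barx1 mesenchyme and 1.09 in Hox-positive cells of the mutant carrier library. Values in Dcn fibroblasts and the Nell2/Barx1 mesenchyme were thus above 1 in each library, with an interval of 0.988 to 1.13 for the Nell2/Barx1 mesenchyme of the mutant carrier, and those in pericyte-like, smooth-muscle-like and cartilage-like cells below it. Col3a1, the type III chain of compliant tissues, differed less, with 3764, 3154, 3870 and 4499 CPM in Dcn fibroblasts and 2365, 2504, 2567 and 2572 CPM in pericyte-like cells. The ratio of Col3a1 to Col1a1 UMIs was thus 3.85 to 4.66 in pericyte-like cells and 0.953 to 1.24 in Dcn fibroblasts. In the Nell2/Barx1 mesenchyme, Col1a1 stood at 1674, 1444, 2349 and 3275 CPM, between both other subtypes in each library. Ratios were counted as past 2-fold where the groups compared held at least 20 UMIs together. By that count the Nell2/Barx1 mesenchyme had 8 chains lower and 1 higher of 24 than Dcn fibroblasts in the wild-type carrier library (10.2% of all genes past 2-fold), and 6 and 0 of 23 (9.37%), 6 and 0 of 24 (9.49%) and 6 and 3 of 24 (11.2%) in the others. Smooth-muscle-like cells held 704 and 980 CPM of Col1a1 and 1292 and 1166 CPM of Col3a1.

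Type V chains, which start and limit the width of type I fibrils, also stood in unlike ratios between subtypes. As for type I, the ratio was lower in pericyte-like cells than in Dcn fibroblasts, but in smooth-muscle-like cells it was higher. Col5a2 differed little between Dcn fibroblasts, with 436, 398, 415 and 543 CPM, and pericyte-like cells, with 376, 372, 440 and 414 CPM. In smooth-muscle-like cells of the wild-type carrier and PGE2 libraries it was lower, at 137 and 127 CPM. Col5a1 stood at 372, 317, 433 and 557 CPM in Dcn fibroblasts and 149, 170, 169 and 197 CPM in pericyte-like cells. The ratio of Col5a1 to Col5a2 UMIs was 0.385 to 0.477 in pericyte-like cells, 0.795 to 1.04 in Dcn fibroblasts, 1.22 and 1.75 in smooth-muscle-like cells, and 0.465 in cartilage-like cells. The chains therefore differed unequally between subtypes.

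In pericyte-like cells of the wild-type carrier library 19 of 24 chains were lower and 0 higher than in Dcn fibroblasts, where 21% of all genes passed 2-fold in either direction. The numbers were 13 lower and 2 higher of 24 in the mutant carrier library (16.9% of all genes), 19 and 0 of 24 in the minoxidil library (19.8%), and 15 and 1 of 22 in the PGE2 library (18.5%). In the wild-type carrier library the largest differences were those of Col14a1 (log2 ratio -5.02), Col8a2 (-4.19), Col9a3 (-3.70), Col6a6 (-3.67) and Col9a1 (-3.49), while Col3a1, Col5a2, Col6a3, Col25a1 and Col26a1 were within 2-fold. Col26a1, a secreted chain outside the main structural classes, stood at 171, 130, 151 and 130 CPM in pericyte-like cells and 166, 174, 163 and 119 CPM in Dcn fibroblasts. It stood at 13.7 and 6.62 CPM in smooth-muscle-like cells.

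Smooth-muscle-like cells held less of most chains than Dcn fibroblasts. Of 24 chains, 21 were past 2-fold lower than in Dcn fibroblasts and 0 higher in the wild-type carrier library (24.2% of all genes either way), and 19 lower and 1 higher in the PGE2 library (23.7%). Col6a1, an obligatory type VI subunit, stood at 28.7 and 53.3 CPM there, against 262 and 307 CPM in the Dcn fibroblasts of those libraries. Col6a3 was lower too, but by less, with 82.9 and 125 CPM in smooth-muscle-like cells and 186 and 164 CPM in Dcn fibroblasts. The ratio of Col6a3 to Col6a1 UMIs was accordingly 2.89 and 2.35 in smooth-muscle-like cells, 0.821 to 1.19 in pericyte-like cells, 0.534 to 0.747 in Dcn fibroblasts and 0.396 in cartilage-like cells. Col6a1 and Col6a2, neighbours in the genome, kept a ratio of 1.24 to 1.61 in the non-cycling mesenchymal subtypes and their clusters. Col12a1, found in stretch-bearing tissues such as tendon, stood at 97.3 and 143 CPM in smooth-muscle-like cells, above the 44.8 to 57.5 CPM of pericyte-like cells. The count of 21 lower chains in the wild-type carrier library became 10 when the mesenchyme was cut into finer clusters.

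**Figure D2:**
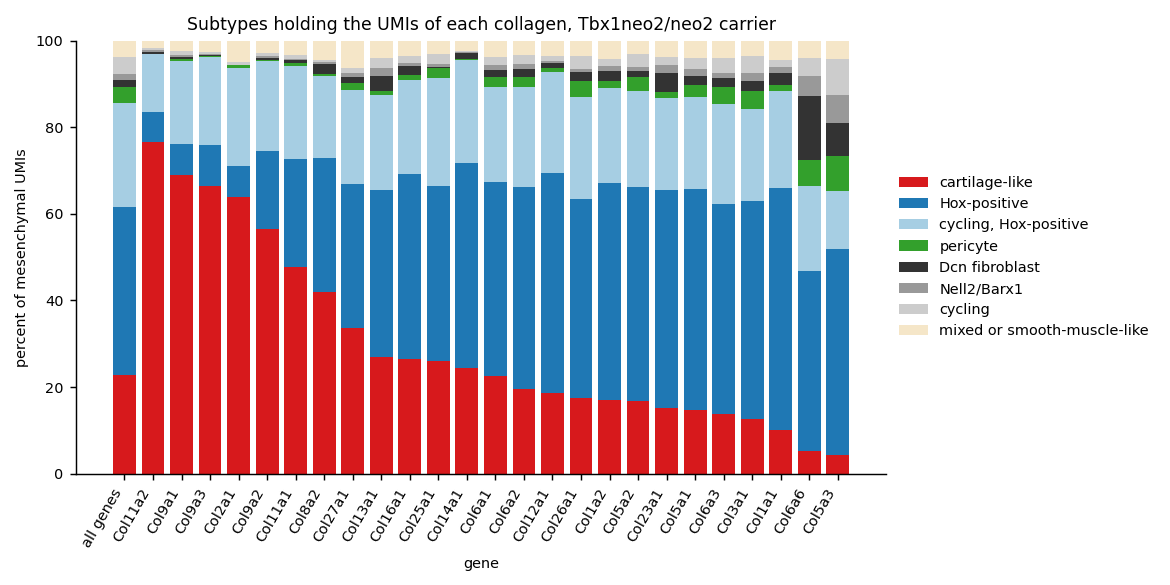
Stacked bars of the percent of the UMIs of each collagen chain that came from each mesenchymal subtype of the mutant carrier library, with the first bar showing the same for all genes. Cartilage-like cells gave 22.8% of all UMIs but 76.7% of those of Col11a2, 69.1% of Col9a1, 66.5% of Col9a3, 63.9% of Col2a1, 56.5% of Col9a2 and 47.8% of Col11a1.

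The cartilage collagens stood high in 1 library. In the cartilage-like cells of the mutant carrier library, Col2a1, the main fibril chain of cartilage, stood at 679 CPM (95% interval 668 to 690). Dcn fibroblasts of the 4 libraries held 1.32, 3.38, 1.19 and 0.901 CPM of it, from 7, 5, 5 and 3 UMIs. The type IX chains Col9a1, Col9a2 and Col9a3, which decorate type II fibrils, stood at 419, 399 and 864 CPM. The type XI chains Col11a1 and Col11a2, which nucleate those fibrils, stood at 498 and 23.9 CPM. Against Dcn fibroblasts of the same library, 8 of 27 chains were higher and 6 lower, where 18.4% of all genes were past 2-fold. The log2 ratio was 7.65 (95% interval 6.43 to 9.28) for Col2a1, 5.23 (4.75 to 5.76) for Col9a3, 4.14 for Col11a2, 3.26 (2.90 to 3.63) for Col9a1, 3.21 for Col9a2, 2.61 (2.35 to 2.88) for Col11a1 and 2.22 for Col25a1, a membrane-spanning chain best known from nerve and muscle. The eighth, Col8a1, had a log2 ratio of 1.01 with an interval from -1.59 to 6.36. Fibril-associated chains were 26.2% of the collagen UMIs of cartilage-like cells, against 1.67% to 5.50% in the pericyte-like, Dcn, Nell2/Barx1 and smooth-muscle-like cells of all libraries. Type I and III chains were 40.5% of them. Lower than in Dcn fibroblasts were Col6a6 (log2 ratio -5.38), Col5a3 (-4.66), Col23a1 (-2.05), Col1a1 (-1.94), Col3a1 (-1.34) and Col5a1 (-1.03).

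Between the 2 cartilage-like clusters Col2a1, Col9a1, Col9a2, Col9a3 and Col11a1 differed less than Col1a1, Col3a1 and Col6a3. Cluster 4, led by 1500015O10Rik, Col9a3, Acan and Aspn, had little Hox RNA (24.0 CPM summed), and cluster 5, led by Col2a1, Col9a1, Sox9 and Gdf5, had 899 CPM. Col2a1 stood at 592 CPM in cluster 4 and 781 CPM in cluster 5, Col9a1 at 354 and 495 CPM, and Col9a2 at 368 and 435 CPM. Col9a3, at 1017 and 686 CPM, and Col11a1, at 614 and 363 CPM, went the other way, and these 5 chains were within 2-fold. Col11a2, the other type XI chain, was past 2-fold lower in cluster 5, at 37.4 CPM in cluster 4 and 8.08 CPM in cluster 5. Col1a1 stood at 1008 CPM in cluster 4 and 265 CPM in cluster 5, Col3a1 at 1821 and 582 CPM, and Col6a3 at 134 and 20.9 CPM. Of 26 chains, 14 were past 2-fold lower in cluster 5 and 1, Col25a1, was higher (log2 ratio 1.35, 95% interval 1.22 to 1.49), where 11.6% of all genes passed. The 36 genes took 0.947% of the UMIs of cluster 4 and 0.540% of those of cluster 5. Col2a1 UMIs were found in 74.7% of the cells of cluster 4 and 93.3% of those of cluster 5, or 66.0% and 84.2% with each cell thinned to 5000 UMIs. Hematopoietic cells of the same library, which should lack Col2a1, had one in 11.9% of cells (6.49% thinned) at a median of 26810 UMIs, against 9900 and 10880 in the cartilage-like clusters. Thinning left out 13, 8 and 191 shallower cells. Chosen instead as cells with at least 2 Col2a1 UMIs, the group would hold 2144 cells of the mutant carrier library (1441 of them cartilage-like, 239 Hox-positive and 442 cycling Hox-positive) and 1, 3 and 2 cells of the others, with Col9a1 at 377 CPM, Col9a3 at 782 CPM and Col11a1 at 445 CPM.

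Pooled over 3 clusters, the Hox-positive cells of the mutant carrier library held a share of collagen RNA close to that of its Dcn fibroblasts. The 36 genes took 0.985% of the UMIs of the Hox-positive cells, and types I and III gave 72.7% of that. The clusters differed, with a share of 1.12% in cluster 0 and 0.774% and 0.775% in clusters 6 and 11, against 0.998% in Dcn fibroblasts. Cluster 0 is the one that scored higher for the Dcn fibroblast list than for the Hox list. Of 32 chains, 6 were higher and 4 lower than in Dcn fibroblasts of that library, where 14.4% of all genes were past 2-fold. Col2a1 stood at 44.5 CPM (log2 ratio 3.72, 95% interval 2.49 to 5.34), Col9a3 at 72.3 CPM (1.65) and Col25a1 at 91.7 CPM (2.09). The share of Hox-positive cells with a Col2a1 UMI was 18.3% (9.96% thinned) at a median of 13870 UMIs, against the 11.9% (6.49% thinned) of hematopoietic cells. The 7 chains that peaked in these cells among the subtypes of that library were Col5a1, Col5a2, Col6a1, Col6a2, Col6a3, Col12a1 and Col14a1. The share of all genes that peaked there was not counted. Col14a1 differed between the clusters, with 150, 58.2 and 45.9 CPM in clusters 0, 6 and 11. Its levels in clusters 6 and 11 lay under that in Dcn fibroblasts of the same library. Col12a1 stood at 243 CPM, against 122 CPM in Dcn fibroblasts. Col9a2 exceeded Col9a1 in each of the 3 clusters, with 0.215 to 0.438 Col9a1 UMIs per Col9a2 UMI, whereas the ratio was 0.961 and 1.14 in the cartilage-like clusters.

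**Figure D3:**
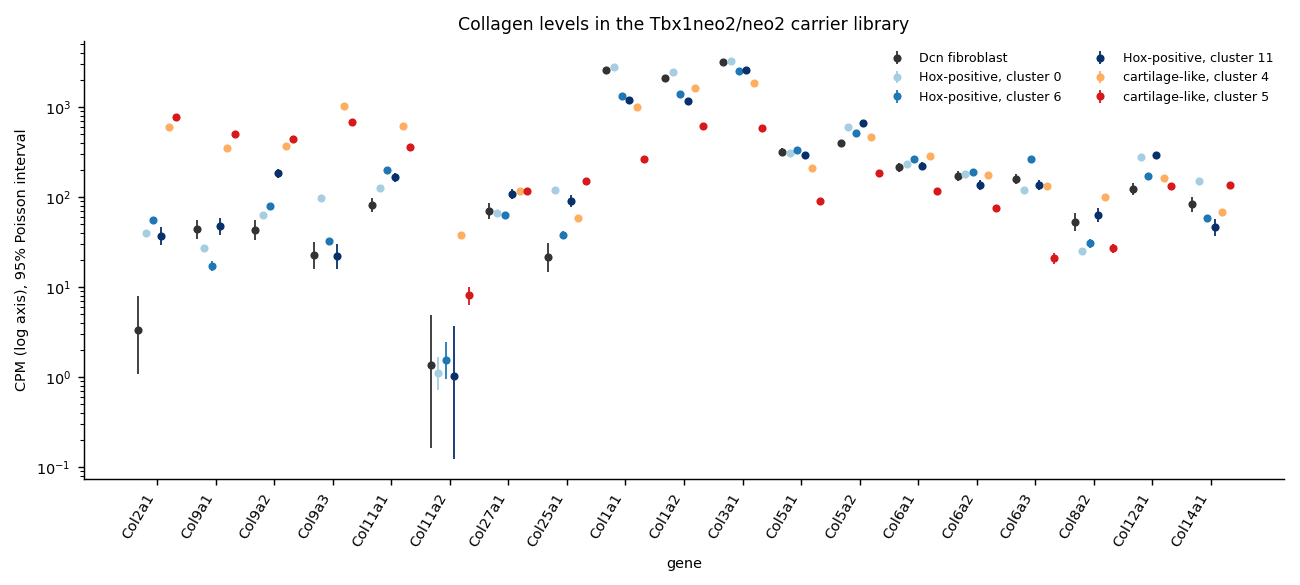
Level in CPM on a log axis, with exact Poisson 95% intervals, of 19 collagen chains in Dcn fibroblasts, the Hox-positive clusters 0, 6 and 11 and the cartilage-like clusters 4 and 5 of the mutant carrier library. Col2a1 stood between 37.1 and 55.0 CPM in the Hox-positive clusters and at 592 and 781 CPM in the cartilage-like clusters.

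The comparison of Tbx1neo2/neo2 with Tbx1+/+ under carrier asks what the mutation does to the mesenchyme. Over all mesenchymal cells 16 of 34 chains were higher and 3 lower, where 17.7% of all genes were past 2-fold, and this count includes the cartilage-like and Hox-positive cells that 1 library alone held. Within the subtypes that all libraries share, few chains differed. In pericyte-like cells 3 were higher and 1 lower of 25 (3.84% of all genes), in Dcn fibroblasts 1 and 1 of 24 (6.5%), and in the Nell2/Barx1 mesenchyme 1 and 0 of 23 (7.46%). The median log2 ratio of the chains was 0.20, -0.28 and -0.17, against -0.06, -0.07 and -0.08 over all genes tested. With each cell thinned to 5000 UMIs the count in pericyte-like cells fell from 4 to 1 and that in the Nell2/Barx1 mesenchyme went from 1 to 3, and finer or integrated clusters made the latter 8 or 6. Markers of other cells moved with the mutant carrier library in the same subtypes. In Dcn fibroblasts the Hox list summed to 42.4, 219, 75.5 and 130 CPM (the limit for Hox-positive clusters was 200 CPM), the cartilage list to 70.0, 121, 98.0 and 61.0 CPM, and Sox9 stood at 41.5, 89.8, 59.1 and 38.2 CPM. In pericyte-like cells the Hox list summed to 1.46, 56.9, 0.431 and 0.595 CPM and the cartilage list to 42.5, 87.7, 41.6 and 57.7 CPM. In the Nell2/Barx1 mesenchyme they were 17.6, 10.7, 34.1 and 12.5 CPM and 62.5, 92.6, 81.2 and 57.3 CPM. Their part in the ratios to the mutant carrier library was not tested. Col1a1 in Dcn fibroblasts was 3574 CPM (95% interval 3524 to 3626) in the wild type and 2553 CPM (2472 to 2635) in the mutant, within 2-fold.

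Col9a1 was the chain that was lower in mutant fibroblasts. It stood at 124, 43.9, 140 and 45.7 CPM in Dcn fibroblasts, from 657, 65, 590 and 152 UMIs. The mutant carrier and PGE2 libraries were low and the wild-type carrier and minoxidil libraries high, and the intervals of the low pair (33.9 to 55.9 and 38.7 to 53.5 CPM) did not meet those of the high pair (115 to 134 and 129 to 152 CPM). The log2 ratio was -1.50 (95% interval -1.89 to -1.13) for mutant over wild type, and -0.996 when cells with genes of another class were left out. Col9a2 did not share the pattern, with 54.5, 43.2, 46.8 and 34.9 CPM, so the ratio of Col9a1 to Col9a2 UMIs was 2.27, 1.02, 2.995 and 1.31. In the Nell2/Barx1 mesenchyme Col9a1 stood at 95.7, 50.5, 116 and 89.9 CPM, lowest in the mutant carrier library again. In pericyte-like cells it stood at 11.04, 16.7, 8.33 and 4.37 CPM, where the mutant carrier library was the highest.

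Col9a3 was higher in all 3 shared subtypes of the mutant carrier library and Col2a1 in its pericyte-like cells, and both were higher in its other cell classes too. Col9a3 stood at 0.406, 26.6, 0.287 and 0.397 CPM in pericyte-like cells, at 5.28, 23.0, 5.70 and 5.11 CPM in Dcn fibroblasts and at 3.59, 26.0, 3.44 and 1.09 CPM in the Nell2/Barx1 mesenchyme. The log2 ratio of mutant over wild type was 6.04 (95% interval 4.76 to 7.69), 2.12 (1.36 to 2.90) and 2.86 (2.14 to 3.56). Erythroid cells, which should not make it, held 0.547 CPM in the wild type and 17.9 CPM in the mutant carrier library, and hematopoietic cells 15.3 and 44.3 CPM. Col2a1 in pericyte-like cells stood at 0.325, 31.9, 0 and 0 CPM, where the counts of 0 allow up to 0.431 and 0.595 CPM, and the 115 UMIs of the mutant carrier library came from 15 of its 233 cells. Erythroid cells of that library held 13.2 CPM of Col2a1, against 0 in the other 3, which allows up to 0.933 CPM. Of all chains, 22 of 30 were past 2-fold higher in hematopoietic cells (7.46% of all genes were), 20 of 22 in endothelial cells (3.85%) and 18 of 32 in epithelial cells (3.26%). The part that free RNA has in these values was not tested. Col14a1, a fibril-associated chain of skin and tendon, was higher in mutant pericyte-like cells, with 23 UMIs from 8 cells (log2 ratio 2.30, 1.31 to 3.31). Col13a1, at 4.30 and 1.67 CPM from 53 and 6 UMIs, was lower (-1.37, -2.88 to -0.15), and was within 2-fold once cells were thinned to 5000 UMIs (-0.32).

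**Figure D4:**
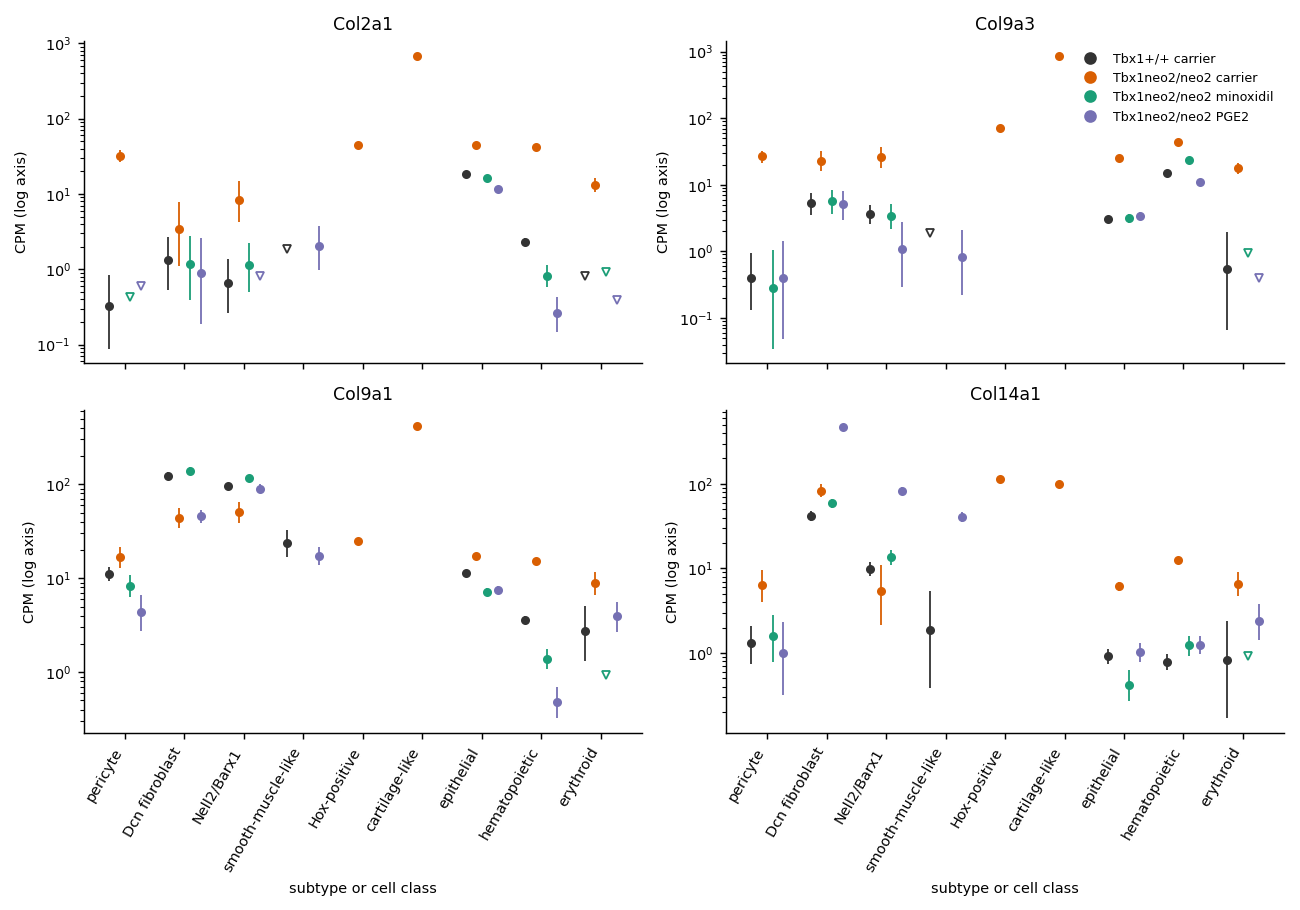
Level in CPM on a log axis, with exact Poisson 95% intervals, of Col2a1, Col9a3, Col9a1 and Col14a1 in the mesenchymal subtypes and in epithelial, hematopoietic and erythroid cells of each library, where open triangles give the limit that a count of 0 allows. Hematopoietic cells held 2.34, 42.6, 0.825 and 0.261 CPM of Col2a1, highest in the library with cartilage-like cells.

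Minoxidil, a vasodilator that opens potassium channels of the kind Kcnj8 and Abcc9 form, was compared with carrier in the mutant. In Dcn fibroblasts 3 chains were higher and 1 lower of 24, where 6.45% of all genes were past 2-fold, in the Nell2/Barx1 mesenchyme 2 and 1 of 23 (7.62%), and in pericyte-like cells 1 and 5 of 24 (3.86%), the higher one being Col13a1 at 1.46 (95% interval 0.19 to 3.01). With cells thinned to 5000 UMIs the counts of 6 in pericyte-like cells and 4 in Dcn fibroblasts both became 1 and that of 3 in the Nell2/Barx1 mesenchyme 5, and with finer or integrated clusters the last was 9 or 5. Col9a1 was higher in Dcn fibroblasts and the Nell2/Barx1 mesenchyme, with log2 ratios of 1.67 (95% interval 1.30 to 2.07) and 1.20 (0.84 to 1.59). Col13a1, a membrane-spanning chain of cell adhesions, stood at 31.7, 18.2, 36.6 and 13.5 CPM in Dcn fibroblasts, and its log2 ratio, at the 2-fold limit, had an interval of 0.41 to 1.65 from 27 and 154 UMIs. The third, Col24a1, had an interval from -0.46 to 3.06. Col9a3 was lower in each subtype, by -2.01 (-2.83 to -1.21) in Dcn fibroblasts, -2.92 (-3.74 to -2.12) in the Nell2/Barx1 mesenchyme and -6.54 (-9.60 to -4.64) in pericyte-like cells. Col2a1 in pericyte-like cells was at least 74.1-fold lower, against the floor of 3 UMIs. Both chains were also higher in other cell classes of the mutant carrier library, as were most chains. The part of this in the ratios was not tested. Against the wild-type carrier library the minoxidil library had 0 of 24 chains past 2-fold in Dcn fibroblasts (3.21% of all genes), 0 of 24 in the Nell2/Barx1 mesenchyme (2.91%), and 1 higher and 1 lower of 24 in pericyte-like cells (2.51%), Col6a6 (1.11, 0.63 to 1.59) and Col8a2 (-1.18). Col14a1 in the Nell2/Barx1 mesenchyme had a log2 ratio of 1.33 (0.23 to 2.68) over the mutant carrier from 7 UMIs there, and turned to -2.04 with finer clusters.

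PGE2, a prostaglandin that acts on blood vessels, was compared with carrier in the mutant in the same way, against the same carrier library. The chain that stood out was Col14a1 in Dcn fibroblasts. Col14a1 stood at 42.1, 83.0, 58.9 and 473 CPM in Dcn fibroblasts, from 223, 123, 248 and 1574 UMIs. The PGE2 library lay above the other 3, and its interval of 450 to 497 CPM was far from theirs. The log2 ratio was 2.51 (95% interval 2.24 to 2.79) over the mutant carrier and 3.49 (3.29 to 3.70) over the wild-type carrier. It was not carried by few cells, as 83.8% of Dcn fibroblasts had a Col14a1 UMI in the PGE2 library against 29.0%, 48.7% and 51.9% in the other libraries, or 54.8% against 15.04%, 27.0% and 18.3% thinned to 5000 UMIs (2 or 3 cells per library left out). The median depth of the 4 groups was 14350, 12280, 25640 and 21950 UMIs, and hematopoietic cells had one in 1.41%, 10.2%, 2.49% and 1.96% of cells. Col14a1 stood at 9.83, 5.36, 13.5 and 82.3 CPM in the Nell2/Barx1 mesenchyme, at 1.87 and 40.5 CPM in smooth-muscle-like cells of the wild-type carrier and PGE2 libraries, and at 1.30, 6.38, 1.58 and 0.992 CPM in pericyte-like cells. The PGE2 library was thus the highest in 3 of 4 subtypes but not in pericyte-like cells, where its interval (0.322 to 2.31 CPM) overlapped that of the wild type. Over the mutant carrier the log2 ratio was 3.94 (2.88 to 5.27) in the Nell2/Barx1 mesenchyme, where it became -0.73 with finer clusters that brought in 283 more cells of the mutant carrier library, and 0.44 with integrated clusters. In Dcn fibroblasts it stayed between 1.42 and 2.57 under the alternatives that could be run. Dcn fibroblasts of the PGE2 library also had more RNA of the smooth muscle list (Acta2, Tagln, Eln, Myh11, Cnn1, Lmod1, Smtn, Mylk), 626 CPM summed against 261, 185 and 169 CPM, with Tagln at 271 CPM against 80.1, 64.1 and 31.6 CPM, and of the pericyte list, 345 CPM summed against 170, 180 and 195 CPM, with Kcnj8 at 34.9 CPM against 6.98, 6.08 and 7.36 CPM. The part of either in the result was not tested.

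Other chains were higher with PGE2 in the same cells. Col6a6, a type VI chain of restricted expression, stood at 70.5, 48.6, 79.5 and 141 CPM in Dcn fibroblasts and at 5.52, 8.05, 11.9 and 26.6 CPM in pericyte-like cells, highest in the PGE2 library in both. The log2 ratio over the mutant carrier was 1.54 (95% interval 1.18 to 1.91) and 1.72 (1.14 to 2.36). Col11a1, at 110, 81.7, 91.9 and 176 CPM in Dcn fibroblasts, had a log2 ratio of 1.10 (0.82 to 1.40). Col16a1, which links fibrils to cells, stood at 69.4, 59.4, 67.4 and 115 CPM there, within 2-fold. Col9a1 in the PGE2 Dcn fibroblasts was at the level of the mutant carrier and past 2-fold under the wild type (-1.44, -1.70 to -1.18). Col25a1 was lower, with 27.0, 21.6, 24.2 and 8.41 CPM (-1.36 over the mutant carrier). In all, 3 chains were higher and 2 lower of 23 in Dcn fibroblasts than in the mutant carrier (7.88% of all genes), and 3 higher and 7 lower of 24 in pericyte-like cells (3.66%). The 7 were Col2a1, Col8a2, Col9a1, Col9a2, Col9a3, Col14a1 and Col23a1, from 17 to 115 UMIs in the mutant carrier. The count of 10 in pericyte-like cells became 3 with cells thinned to 5000 UMIs and 4 with at most 5% mitochondrial UMIs.

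The Nell2/Barx1 mesenchyme of the PGE2 library was richer in collagens as a group. There 7 chains were higher and 1 lower of 24 than in the mutant carrier (7.09% of all genes), and the median log2 ratio of the chains was 0.77 against 0.03 over all genes. Col1a1 stood at 1674, 1444, 2349 and 3275 CPM, with a log2 ratio of 1.18 (95% interval 1.11 to 1.25). Col5a3, a minor type V chain, stood at 12.2, 13.8, 16.1 and 47.5 CPM (1.79, 1.08 to 2.58). Col16a1 (1.45, 0.91 to 2.03), Col6a3 (1.06, 0.81 to 1.31) and Col8a2 (1.21, 0.36 to 2.18, from 13 UMIs in the mutant carrier) were higher too, while Col24a1 had an interval from 0.18 to 8.20. With finer clusters Col6a3, Col8a2 and Col16a1 turned to -0.17, -0.996 and -0.049, and with integrated clusters the count of 8 became 5. Against the wild-type carrier library, the PGE2 library had 1 chain higher and 4 lower of 24 in Dcn fibroblasts (7.48% of all genes), 2 and 2 of 22 in pericyte-like cells (4.17%), 5 and 3 of 24 in the Nell2/Barx1 mesenchyme (6.37%) and 1 and 1 of 19 in smooth-muscle-like cells (5.7%). In the Nell2/Barx1 mesenchyme Col25a1 and Col26a1 were lower than in the wild type, both at -1.28, with Col26a1 at 110, 71.9, 73.0 and 45.1 CPM. In the same cells hemoglobin and other erythroid RNA summed to 92.2, 4397, 194 and 1137 CPM, and the smooth muscle list to 238, 188, 426 and 866 CPM. Their part in these ratios was not tested.

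**Figure D5:**
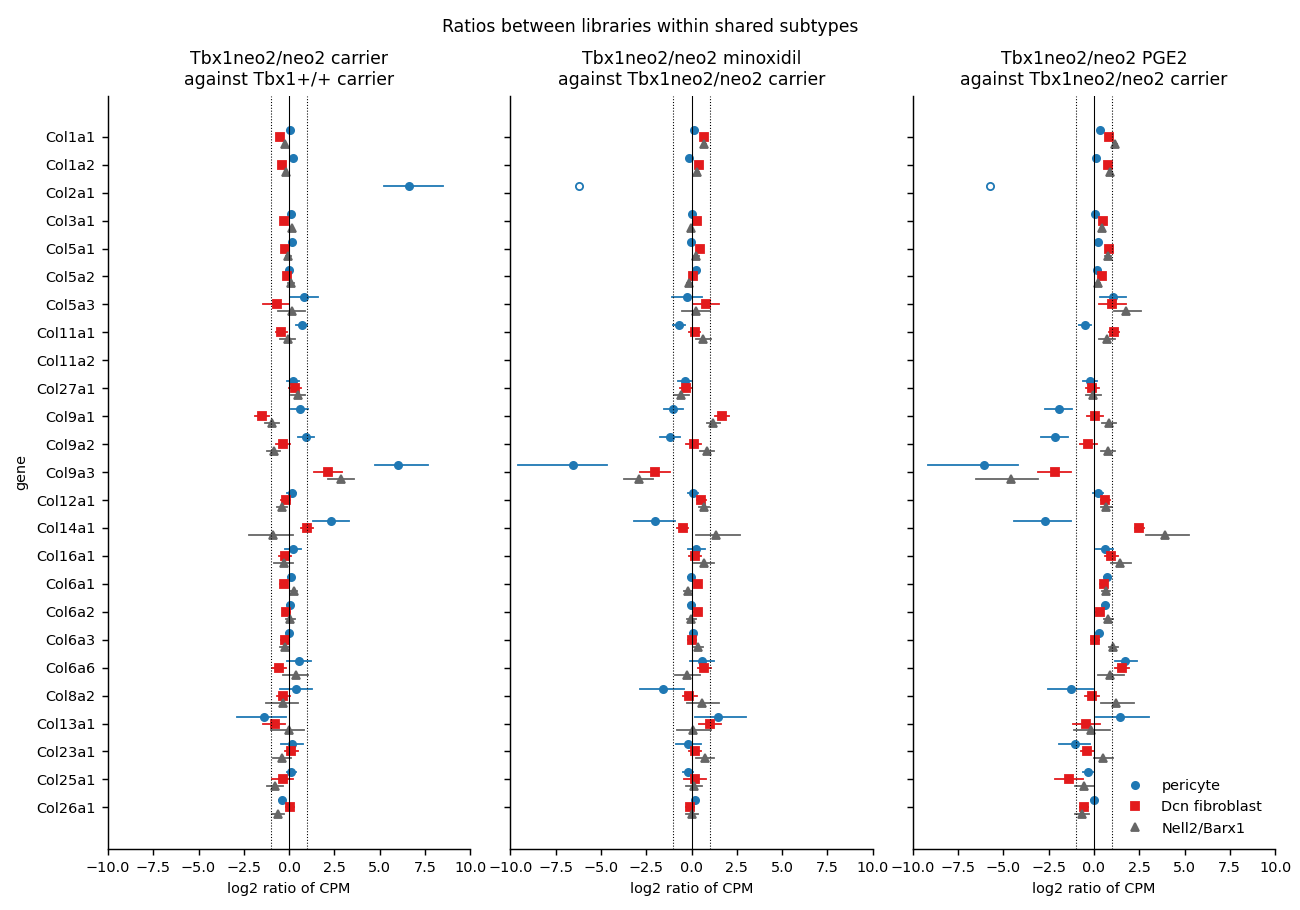
Log2 ratios with exact 95% intervals of the collagen chains in pericyte-like cells, Dcn fibroblasts and the Nell2/Barx1 mesenchyme for mutant carrier over wild-type carrier, minoxidil over mutant carrier and PGE2 over mutant carrier, with dotted lines at 2-fold and open symbols for bounds against a count of 0. The contrasts share the mutant carrier library. Col9a3 was above the upper line in the first and under the lower line in the other two, and Col14a1 stood out with PGE2 in Dcn fibroblasts at 2.51.

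How far each chain varied over the libraries differed between subtypes. Chains and all other genes were taken where they reached 20 CPM in at least 1 of the 4 libraries. Of these, 3 of 17 chains differed by more than 2-fold between the highest and the lowest library in pericyte-like cells (2.2% of all genes at that level did). The numbers were 7 of 23 in Dcn fibroblasts (7.3%) and 11 of 22 in the Nell2/Barx1 mesenchyme (4.76%). The median ratio of highest to lowest was 1.31, 1.70 and 1.98, against 1.22, 1.31 and 1.29 over all genes at that level. The PGE2 library was the highest for 10, 12 and 15 of those chains, and for 24.3%, 36.1% and 26.3% of all genes at that level. A chain that reached 20 CPM in 1 library alone entered through the library where it was high, so part of its spread was fixed by the choice. The 3 chains past 2-fold in pericyte-like cells, Col2a1, Col6a6 and Col9a3, entered in this way. So did Col5a3, Col9a3 and Col14a1 in the Nell2/Barx1 mesenchyme. These counts therefore do not measure how variable collagens are. Col5a2, Col3a1 and Col26a1 in pericyte-like cells were among the steady ones, with Col5a2 at 376, 372, 440 and 414 CPM.

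The genes that fold, cross-link, bind and cut collagens were counted from a list of 55. Mutant against wild type under carrier, 2 were higher and 0 lower of 44 in pericyte-like cells (3.84% of all genes past 2-fold), 1 and 2 of 42 in Dcn fibroblasts (6.5%) and 2 and 1 of 41 in the Nell2/Barx1 mesenchyme (7.46%). Lox, the lysyl oxidase that cross-links fibrils, was higher in mutant pericyte-like cells (log2 ratio 1.43, 95% interval 0.88 to 1.98). Aspn, a small leucine-rich proteoglycan that binds fibrils, was higher in mutant Dcn fibroblasts (1.32) and Nell2/Barx1 mesenchyme (3.22, from 20 and 23 UMIs). Aspn is also a leading gene of cartilage-like cluster 4 and Hox-positive cluster 0, which lay in the mutant carrier library. The part of free RNA in the Aspn ratios was not tested. Minoxidil against mutant carrier, the numbers were 0 and 2 of 43 (3.86%), 0 and 1 of 41 (6.45%), and 4 and 1 of 42 (7.62%), with Lox lower in pericyte-like cells (-1.79) and Aspn lower in the other 2 subtypes (-2.17 and -2.62). PGE2 against mutant carrier, they were 0 and 2 of 42 (3.66%), 2 and 0 of 41 (7.88%), and 5 and 1 of 42 (7.09%). Lox was higher with PGE2 in Dcn fibroblasts, by 1.56 (1.27 to 1.86) over the mutant carrier and 1.48 (1.31 to 1.66) over the wild type, and in the Nell2/Barx1 mesenchyme by 1.55 (1.12 to 2.01) over the mutant carrier. Adamts2 (1.82, 1.21 to 2.49), a protease that trims procollagen, was higher there as well. Adamts3 (1.68), a protease of the same kind, had an interval from -0.39 to 4.83, from 2 and 18 UMIs. Fmod, from the same list, had the largest ratio there (2.21, 0.21 to 5.33), from 2 and 26 UMIs. In cartilage-like cells 15 of 51 partner genes were higher and 10 lower than in Dcn fibroblasts of the same library (18.4% of all genes past 2-fold), among the higher Itga11 (4.84), an integrin subunit that binds collagen, and Prelp (3.96), a proteoglycan of cartilage.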

How the data were processed

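Single-cell RNA was measured in 4 libraries of thymic lobes (pooled for the hypoplastic tissues) at E13-13.5, 1 per group as the sample labels give it. The authors deposited filtered matrices of UMI counts per gene and cell, made with Cell Ranger 5.0.1 against mm10, and named Seurat for their own clustering. Whether intronic reads were counted was not given in the sources used here. No per-sample column was left unused.

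From the counts, cells were kept if 200 genes or more were detected and mitochondrial UMIs did not pass 10%, and were clustered with Seurat 5.3.0 in R 4.3.3 (2000 variable genes, 30 dimensions, resolution 0.3 for all cells and 0.5 for mesenchymal cells, collagen and partner genes left out of the variable genes of the mesenchyme). Clusters were named from marker lists. UMIs were summed per subtype and library of at least 50 cells and scaled to the group total in Python 3.11.15 (numpy 2.4.6, scipy 1.17.1, pandas 2.3.3), and figures were drawn with matplotlib 3.10.9. A ratio was counted as past 2-fold with at least 20 UMIs in both groups together. A count of 0 was set at a floor of 3 UMIs for a ratio. With 1 library per group no test was possible, and intervals at 95% cover counting error only. The scripts were tested on simulated data. PCR duplicates are removed by UMIs.

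Genes named with values reached 20 CPM in at least 1 subtype and library (25 of 36), and the other 11 are given by range. The members and lists were chosen with earlier results of these data known, and the limit of 200 CPM of summed Hox genes, the score limits for naming clusters and the Scrublet score of 0.2 were set after seeing the data. Doublets were kept. Scrublet (scanpy 1.11.5) at its automatic threshold called 567, 0, 70 and 75 cells in the wild-type carrier, mutant carrier, minoxidil and PGE2 libraries, and a score over 0.2 marked 482, 402, 72 and 81. Alternatives were a 1.5-fold limit, no minimum of UMIs, TMM factors from edgeR 4.0.16, the mean over cells, cells thinned to 5000 UMIs, at most 5% mitochondrial UMIs, resolution 1.0, integrated clustering, removal of either set of doublets or of cells with at least 2 genes of another class, and cartilage-like cells chosen by at least 2 Col2a1 UMIs. Upstream sequences came from RefSeq (GRCm38.p6).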

Additional observations from a re-analysis of the deposited data

Results flagged for a closer look

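For 2 chains, the same drug contrast went past 2-fold in opposite directions in different mesenchymal subtypes, each from 1 library per group, and the difference between subtypes was not tested. Col14a1 with PGE2 against carrier in the mutant had a log2 ratio of 2.51 in Dcn fibroblasts and 3.94 in the Nell2/Barx1 mesenchyme, but -2.69 in pericyte-like cells, where it rested on 23 UMIs from 8 mutant carrier cells and 5 UMIs with PGE2. With minoxidil Col14a1 stood at -2.01 in pericyte-like cells and 1.33 in the Nell2/Barx1 mesenchyme, from 23 and 11 UMIs and from 7 and 94 UMIs. Col8a2 with PGE2 stood at -1.25 in pericyte-like cells, from 17 and 10 UMIs, and at 1.21 in the Nell2/Barx1 mesenchyme, from 13 mutant carrier UMIs. These directions depended on the clustering. With integrated clusters Col14a1 with PGE2 was 0.36 in pericyte-like cells, and in the Nell2/Barx1 mesenchyme it was -0.73 with finer and 0.44 with integrated clusters. With minoxidil it was -2.04 and -2.40 there, and Col8a2 with PGE2 -0.996 and -0.046. All of these contrasts share the mutant carrier library.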

How the results depend on the processing

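No paired analysis was possible because each group had 1 library, and for the same reason no library could be left out. Counts are of chains past 2-fold in either direction. The shares of all genes past 1.5-fold, or without the minimum of UMIs, are not given here. A rise in the count of chains or partner genes under these looser limits is therefore not a result about those genes. With a limit of 1.5-fold, mutant against wild type went from 4 to 8 in pericyte-like cells, from 2 to 5 in Dcn fibroblasts and from 1 to 6 in the Nell2/Barx1 mesenchyme. For minoxidil against carrier it went from 4 to 7 and 3 to 9 in the latter 2 subtypes, and PGE2 from 5 to 11 and 8 to 18. With no minimum of UMIs the Dcn counts became 4, 7 and 9 for the 3 contrasts, and the Nell2/Barx1 counts 4 and 6 for the first 2. With thinned cells the pericyte-like counts became 1, 1 (from 6) and 3 (from 10), the Dcn count with minoxidil 1, and the Nell2/Barx1 counts 3 and 5 for the first 2 contrasts. At most 5% mitochondrial UMIs gave 4 with PGE2 in pericyte-like cells. Without cells that held genes of another class, the Dcn counts were 1 and 2 for the first 2 contrasts and the Nell2/Barx1 count with minoxidil was 1. For mutant against wild type the Nell2/Barx1 count was 2 with the mean over cells, 3 without Scrublet scores over 0.2, 8 at resolution 1.0 and 6 with integration. For minoxidil it was 9 and 5 with those same settings, and for PGE2 5 with integration. At resolution 1.0 this group also held a cluster of 283 mutant carrier cells, and the smooth-muscle-like count against Dcn fibroblasts of the wild type was 10 in place of 21. Directions turned there for Col14a1 in the Nell2/Barx1 mesenchyme (minoxidil -2.04, PGE2 -0.73), for Col6a3 (-0.17), Col8a2 (-0.996) and Col16a1 (-0.049) with PGE2, and for Col9a2 (0.34 in the wild type, 0.25 with PGE2) and Col9a1 (0.10 with PGE2) in smooth-muscle-like cells against Dcn fibroblasts. With integration they turned for Col14a1 (0.36 with PGE2 in pericyte-like cells, -2.40 with minoxidil in the Nell2/Barx1 mesenchyme) and Col8a2 (-0.046 with PGE2 in the Nell2/Barx1 mesenchyme). The cause was not tested. For partner genes the 1.5-fold limit gave 5 each for mutant against wild type in the 3 subtypes (from 2, 3 and 3), 5 and 5 with minoxidil in pericyte-like cells and Dcn fibroblasts, and 20 and 21 with PGE2 in Dcn fibroblasts and the Nell2/Barx1 mesenchyme (from 2 and 6). No minimum gave 4, 7 and 5, then 5 and 7, and 6 with PGE2 in Dcn fibroblasts. Of the chains called past 2-fold, TMM factors kept the direction of 167 of 167 and 161 past 2-fold, thinning 136 and 131 of 136, integration 163 and 149 of 166, and resolution 1.0 159 and 145 of 167. Fewer could be compared at most 5% mitochondrial UMIs (43 and 39 of 43) and without cells that held genes of another class (78 and 69 of 78). Such cells were 46.2%, 51.3%, 75.6% and 84.2% of the mesenchymal cells of the 4 libraries. Those with erythroid genes were 33%, 48.5%, 68.1% and 81.9%. Groups of 106 to 233 mutant carrier cells limit the depth of each subtype contrast.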

Other observations

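Outside the mesenchyme, some partner chains stood in other ratios than in Dcn fibroblasts. Col9a3 stood at 15.3, 44.3, 23.6 and 11.2 CPM in hematopoietic cells of the wild-type carrier, mutant carrier, minoxidil and PGE2 libraries, with 22.5%, 28.8%, 53.1% and 26.3% of cells holding a UMI (6.59%, 11.5%, 11.8% and 6.19% thinned to 5000 UMIs). Per Col9a2 UMI these cells held 6.46, 2.27, 15.1 and 35.6 Col9a3 UMIs, while Dcn fibroblasts held 0.0969, 0.531, 0.122 and 0.147. Pericyte-like cells of the same wild-type carrier, minoxidil and PGE2 libraries held 0.406, 0.287 and 0.397 CPM of Col9a3, under the hematopoietic cells of each.

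Epithelial cells held 18.5, 44.6, 16.3 and 11.5 CPM of Col2a1, above the 0.325, 31.9, 0 and 0 CPM of pericyte-like cells in each library. Their Col9a1 stood at 11.4, 17.3, 7.18 and 7.45 CPM. Per Col5a2 UMI they held 2.63, 0.936, 7.70 and 7.17 Col5a1 UMIs, against 0.795 to 1.04 in Dcn fibroblasts, so the mutant carrier library alone lay within that range. Mesothelial cells of the PGE2 library numbered 24, under the minimum set for a level. Those of the wild-type carrier, mutant carrier and minoxidil libraries had 3578, 4399 and 5953 CPM of Col1a1. The 36 genes took 0.888%, 1.22% and 1.36% of the UMIs of these cells. Their ratio of Col1a1 to Col1a2 UMIs, 1.62, 1.21 and 1.81, was above 1 in each, as in Dcn fibroblasts. Endothelial cells held 46.5, 103, 140 and 120 CPM of Col5a2 and 10.1, 13.9, 26.4 and 26.2 CPM of the membrane-spanning chain Col23a1. All values come from 1 library per group, and free RNA was not subtracted.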
